A study of Mus musculus with 11 samples.

Results

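The bile acid transport and sensing genes examined here were 9 mouse genes, Slc51a, Slc51b, Slc10a2, Slc10a6, Fabp6, Nr1h4, Nr0b2, Fgf15 and Gpbar1, and a member was every probe set that the platform annotation maps to 1 of these symbols alone. Of the 9 genes 8 had a probe set, with 1 each, among 18193 genes and 45037 probe sets other than controls. Gpbar1 had none and was not analysed here. The members were chosen by these same signals, since the set was drawn up with the differences between the groups known, above all the high values of Slc51a and Slc10a2 after imatinib, so the members' values, differences and standard errors are given as a description with no p-value. Counts of members that passed the threshold in the fit over all genes are given beside the share of all genes and support nothing. The arrays held RNA from colon of adult C57BL/6 mice, 4 arrays from 3 h and 4 from 12 h after an injection of imatinib, an inhibitor of tyrosine kinases such as Abl, Kit and the PDGF receptors, and 3 control arrays from before imatinib. No genetic alteration is named in the labels. All mice of the treated groups had been injected, whereas no vehicle-injected or hour-matched mice were analysed here, and drug, injection and hour of harvest cannot be told apart. The labels do not say that each array came from a separate mouse, and p-values therefore measure the spread between these samples, which may be technical. The values are linear signals scaled per array, with array medians from 16.8 to 23.9, and precision is limited by how few arrays there are. In whole tissue, fewer cells of a type and less RNA per cell cannot be told apart.

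Bile acids are secreted by the liver and recovered in the gut, chiefly in the ileum. Slc10a2 encodes the apical sodium-dependent transporter (ASBT) that takes them into the enterocyte, Fabp6 encodes the ileal bile acid binding protein of the cytosol, and Slc51a and Slc51b encode the α and β subunits of the organic solute transporter (OST), which work as a pair to pass bile acids out through the basolateral membrane. Nr1h4 encodes the nuclear bile acid receptor FXR, whose known ileal target genes include Fgf15, Nr0b2, Fabp6 and both OST subunits. FGF15 travels to the liver, where it signals through FGFR4 with β-Klotho to lower bile acid synthesis, and Nr0b2 encodes SHP, a nuclear receptor that lacks a DNA-binding domain and represses other receptors. Gpbar1 encodes the membrane bile acid receptor TGR5. Slc10a6 encodes a relative of ASBT known for carrying sulphated steroids.

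The promoter windows of the 4 transporter genes whose signals differed most between the groups are printed first, because these genes are the ones the values below turn on. They are the RefSeq windows of build GRCm38.p6, reaching from 250 bases before to 50 bases after the start site, on the gene's strand from 5′ to 3′. Capitals mark every match, on either strand, to 1 of 9 motifs. The motifs were the E-box CACGTG, the inverted repeat IR-1 bound by FXR with RXR (AGGTCANTGACCT), the nuclear receptor half-site AGGTCA, the glucocorticoid response element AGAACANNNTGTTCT, the D-box TTATGTAA, the AP-1 site TGANTCA, the CDX site TTTATG, the LRH-1 site TCAAGGTCA and the HNF4 site CAAAGTCCA. The half-site lies within the IR-1 and LRH-1 motifs, and the motifs were chosen after the windows and the expression results had been seen. The Slc51a window is chr16:32487830-32488129 on the minus strand, that of Slc51b is chr9:65422724-65423023 on the minus strand, that of Slc10a2 is chr8:5105238-5105537 on the minus strand and that of Slc10a6 is chr5:103629354-103629653 on the minus strand.
Slc51a: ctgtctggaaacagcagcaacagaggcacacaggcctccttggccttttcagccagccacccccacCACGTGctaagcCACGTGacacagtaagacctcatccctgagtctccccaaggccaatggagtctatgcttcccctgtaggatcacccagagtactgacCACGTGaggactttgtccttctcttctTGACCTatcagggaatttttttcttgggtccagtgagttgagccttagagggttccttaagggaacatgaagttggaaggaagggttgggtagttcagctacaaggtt
Slc51b: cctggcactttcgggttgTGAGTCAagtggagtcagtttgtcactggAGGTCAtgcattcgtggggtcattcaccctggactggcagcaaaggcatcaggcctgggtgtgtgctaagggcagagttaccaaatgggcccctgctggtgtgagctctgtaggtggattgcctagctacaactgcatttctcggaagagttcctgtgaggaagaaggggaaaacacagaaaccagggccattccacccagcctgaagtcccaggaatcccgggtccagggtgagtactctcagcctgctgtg
Slc10a2: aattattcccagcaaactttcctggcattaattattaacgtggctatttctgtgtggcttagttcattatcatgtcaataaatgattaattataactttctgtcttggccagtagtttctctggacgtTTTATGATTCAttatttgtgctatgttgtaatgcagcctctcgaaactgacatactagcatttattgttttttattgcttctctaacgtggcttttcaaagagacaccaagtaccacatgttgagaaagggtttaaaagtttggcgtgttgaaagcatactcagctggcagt
Slc10a6: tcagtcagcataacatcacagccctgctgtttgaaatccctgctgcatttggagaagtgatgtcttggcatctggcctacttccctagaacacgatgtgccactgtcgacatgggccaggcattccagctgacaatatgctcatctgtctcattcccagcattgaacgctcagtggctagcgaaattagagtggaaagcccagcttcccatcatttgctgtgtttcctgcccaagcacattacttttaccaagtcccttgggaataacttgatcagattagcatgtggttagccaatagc

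The Slc51a window held 3 E-boxes, with their first bases at −184, −172 and −85 from the start site, and 1 half-site on the opposite strand at −58. An E-box was present in 7.15% of 32851 promoter windows, and 3 or more were present in 29 of them (0.0883%). The Slc51b window held 1 AP-1 match and 1 half-site, which occurred in 7.81% and 16.3% of all windows. In the Slc10a2 window a CDX match (11.8% of all windows) overlapped an AP-1 match, and the Slc10a6 window held none of the 9 motifs. Windows of 8 members were found, and among the others Nr0b2 held 1 E-box, Fabp6 1 CDX match, and Nr1h4, whose window lies at a start inside the gene, 1 half-site and 1 CDX match. No member window held the IR-1 repeat or the glucocorticoid element in these exact letters, each found in 3 of all 32851 windows (0.00913%). A match is a run of letters and was not tested as a binding site.

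**Figure D1:**
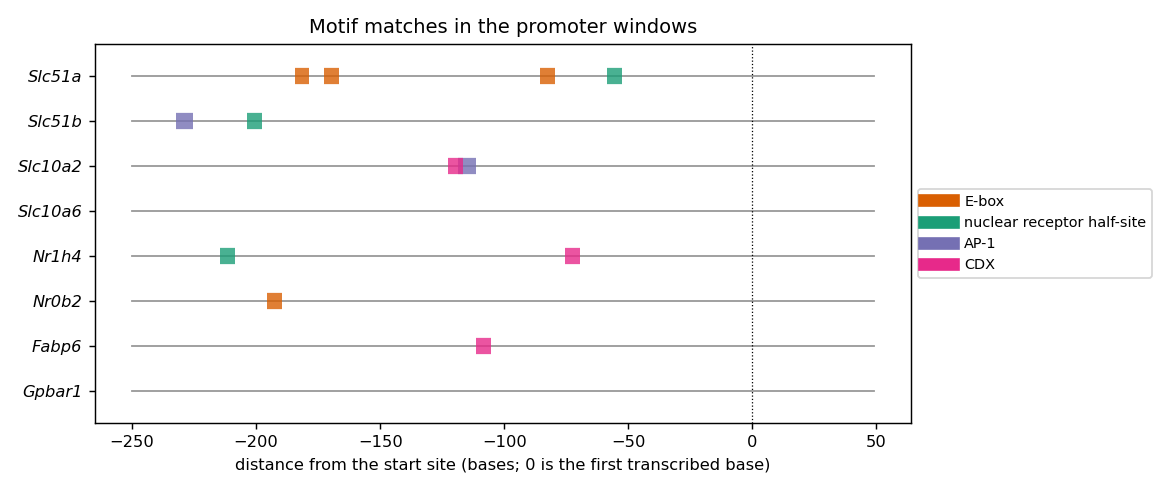
Positions of motif matches in the promoter windows of the 8 members with a window, as distance in bases from the start site. Each coloured block is 1 match, and Slc51a is the gene with 3 E-boxes, while Slc10a6 and Gpbar1 have no match.

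The export subunit gene Slc51a was higher than control at both times, with the largest log2 difference among the members at the offset of 16. With an offset of 1 the difference of Slc10a2 was larger, at 3.41 against 3.25 for Slc51a at 3 h and 3.86 against 3.04 at 12 h, as was its ratio of mean signals (9.69 against 7.72 at 3 h and 13.7 against 6.95 at 12 h). The Slc51a signal was 329, 343.5, 347.5 and 268.6 on the 3 h arrays, 160.8, 305.2, 396.3 and 298.5 on the 12 h arrays, and 15.9, 25.7 and 83.6 on the control arrays. Every treated array lay above every control, and the controls themselves spread more than 5-fold. The mean was 322.2 ± 36.6 (SD, n = 4) at 3 h and 290.2 ± 97.1 (SD, n = 4) at 12 h, against 41.7 ± 36.6 (SD, n = 3) in control. On the scale of log2(signal + 16), which understates the change of dim genes, the differences from control were 2.72 ± 0.35 (SE) at 3 h and 2.52 ± 0.35 (SE) at 12 h. The Slc51a probe set carries the suffix of the array maker for probes that match more than 1 transcript.

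The partner subunit gene Slc51b was higher too, by less. Its signal was 329.9, 434.3, 310.9 and 243.7 at 3 h, 298.4, 332.2, 357.4 and 290.5 at 12 h, and 82.9, 116.9 and 278.9 in control. All 12 h arrays lay above all controls, whereas 1 of the 4 arrays at 3 h lay below control replicate 3. The log2 differences from control were 1.11 ± 0.30 (SE) at 3 h and 1.09 ± 0.30 (SE) at 12 h, and they moved with 2 controls. At 3 h the difference was 1.56 without control replicate 3 and 0.78 without control replicate 1, and at 12 h it was 1.54 and 0.76. OST needs both subunits, and the 2 genes also moved together from array to array. After subtraction of the group means Pearson's r between them was 0.83 over the 11 arrays, which share scaling and RNA preparation.

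Slc10a2, the apical uptake transporter gene, was close to the floor of the array in control and clearly measured afterwards. The signal was 58.9, 95, 67.8 and 49.7 at 3 h, 53.4, 145.1, 96.2 and 88.6 at 12 h, and 1.2, 7.6 and 12.2 in control. No treated array overlapped a control array. Means were 67.8 ± 19.6 (SD, n = 4) at 3 h and 95.8 ± 37.8 (SD, n = 4) at 12 h, against 7.0 ± 5.52 (SD, n = 3) in control. The log2 differences of 1.87 ± 0.26 (SE) and 2.25 ± 0.26 (SE) depend on the offset, because the controls lie below it. With an offset of 1 they were 3.41 and 3.86, and with an offset of 64 they were 0.88 and 1.14. At 12 h against 3 h Slc10a2 differed by 0.38 ± 0.25 (SE), and the arrays of both times overlapped.

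Slc10a6 had a different course, high at 3 h alone. The signal was 141.9, 184.7, 196.2 and 135.6 at 3 h, 39.7, 25.4, 29.2 and 34.4 at 12 h, and 23.8, 23.1 and 28.7 in control. The 3 h arrays stood apart from all 7 others, while the 12 h and control arrays overlapped. Against control the log2 difference was 2.12 ± 0.14 (SE) at 3 h and 0.22 ± 0.14 (SE) at 12 h, and between the times, 12 h minus 3 h, it was −1.90 ± 0.13 (SE). Its 3 measured relatives did not pass the test in any comparison (limma; none had an unadjusted p under 0.05). Slc10a3 averaged 149.7 ± 2.4 (SD, n = 4) at 3 h, 143.2 ± 15.2 (SD, n = 4) at 12 h and 133.6 ± 8.2 (SD, n = 3) in control, and Slc10a7 averaged 122.1 at 3 h, 109.1 at 12 h and 115.6 in control. The liver uptake transporter gene Slc10a1 stayed at or under 13.9 on every array.

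**Figure D2:**
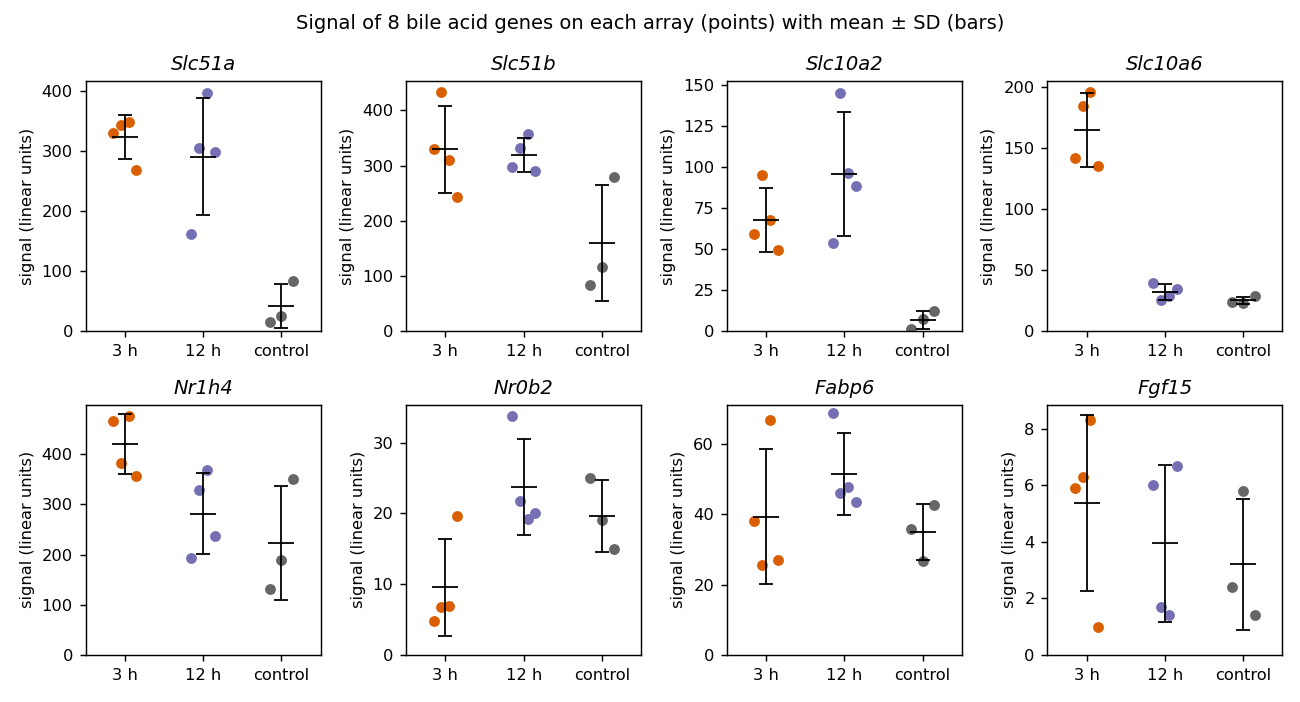
Signal in linear units of the 8 measured members on each array (points; 3 h n = 4, 12 h n = 4, control n = 3), with group mean ± SD as bars. Slc51a and Slc10a2 lie above control at both times, Slc10a6 at 3 h, and Fgf15 stays at or under 8.3 throughout.

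The receptor gene Nr1h4 was highest at 3 h. Its signal was 465.9, 382.1, 476.4 and 355.7 at 3 h, 192.7, 328.9, 367.6 and 236.2 at 12 h, and 130.5, 190.1 and 349.8 in control. The 3 h arrays did not overlap the controls, by a margin of 355.7 to 349.8, and the 12 h arrays did overlap them. The log2 differences from control were 0.96 ± 0.28 (SE) at 3 h and 0.38 ± 0.28 (SE) at 12 h. Leaving out control replicate 1 brought the 12 h value to 0.07, and leaving out control replicate 3 brought it to 0.73.

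Nr0b2, the gene of the repressor SHP, was the one member with a lower mean at 3 h than in control at a difference beyond its standard error. It had a signal of 4.8, 6.8, 6.9 and 19.7 at 3 h, 33.8, 21.7, 19.2 and 20.1 at 12 h, and 25, 19.1 and 14.9 in control. Of the 4 arrays at 3 h, 3 lay below all controls and the other was within their range. Against control the log2 difference was −0.51 ± 0.19 (SE) at 3 h and 0.15 ± 0.19 (SE) at 12 h, and 12 h minus 3 h gave 0.66 ± 0.18 (SE). These signals lie about at the offset, and with an offset of 1 the first value was −1.13, with an offset of 64 −0.19.

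The cytosolic binding protein gene Fabp6 was dim, with 38, 25.7, 66.9 and 26.9 at 3 h, 68.8, 46.1, 47.7 and 43.4 at 12 h, and 35.8, 26.8 and 42.7 in control. The lowest 12 h array, 43.4, lay just above the highest control, 42.7, and the log2 difference was 0.40 ± 0.22 (SE) at 12 h and 0.07 ± 0.22 (SE) at 3 h. Fgf15, the hormone gene that FXR controls in the ileum, had signals from 1 to 8.3 at 3 h, 1.4 to 6.7 at 12 h and 1.4 to 5.8 in control, all below the offset of 16. Its mean over the 11 arrays was above that of 10.7% of the genes. No difference in Fgf15 was detectable at this level.

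Among the 8 measured members, in the model fitted to all genes, 3 passed the threshold upward at 3 h (Slc51a, Slc10a2 and Slc10a6) and 0 downward, where 2.54% of all genes passed in either direction with 1.43% upward and 1.11% downward. At 12 h 2 passed upward (Slc51a and Slc10a2), where 1.62% of all genes passed with 0.781% upward and 0.835% downward, and at 12 h against 3 h Slc10a6 alone passed, downward, where 4.08% passed, 1.99% upward and 2.09% downward. Without overlap between the arrays of the groups, 4 members were higher at 3 h than in control, against 6.76% of all genes (15.3% in either direction and 8.55% lower), and 4 at 12 h, against 6.02% (13% in either direction and 6.96% lower). At 12 h against 3 h Slc10a6 alone stood apart, lower, against 5.26% of all genes (11.5% in either direction and 6.28% higher). Since the set was drawn up from these comparisons, nothing is read from these counts. The median log2 difference of the members was 1.03 at 3 h and 0.39 at 12 h against control, and −0.06 at 12 h against 3 h, where the medians of all genes were −0.02, −0.01 and 0.01. The 2 comparisons with control share the control arrays.

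**Figure D3:**
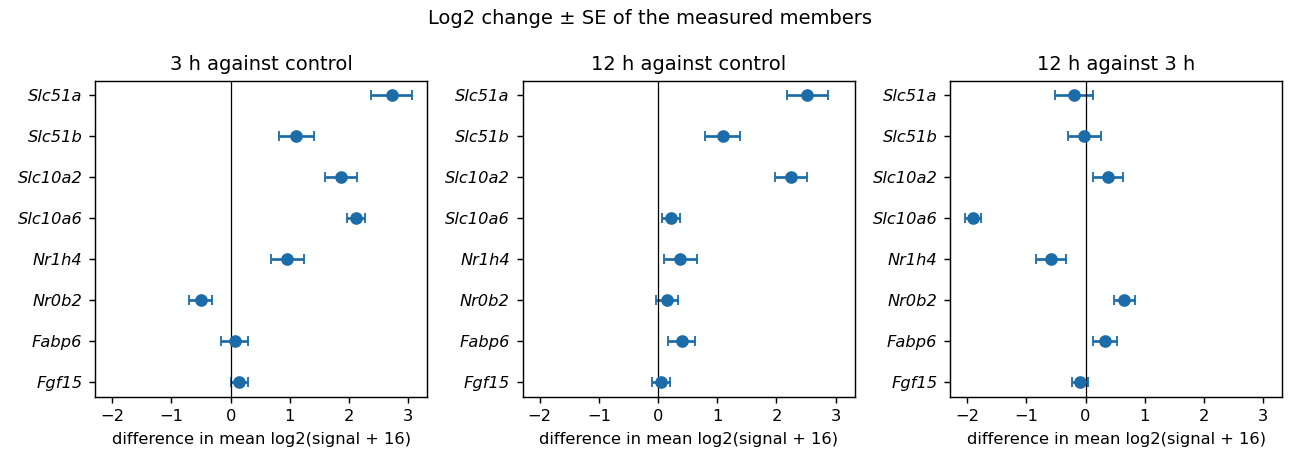
Difference in mean log2(signal + 16) ± SE for the 8 measured members, with 1 panel per comparison (both times against control, then the later against the earlier time). Slc51a and Slc10a2 are displaced to the right in both comparisons with control, and Slc10a6 lies at −1.90 in the third panel.

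Within the groups the transporter genes and Nr1h4 varied together. Control replicate 3 had the highest and control replicate 1 the lowest signal of Slc51a, Slc51b, Slc10a2 and Nr1h4, and 12 h replicate 1 had the lowest 12 h signal of Slc51a, Slc10a2 and Nr1h4. After subtraction of the group means r was 0.93 between Slc51a and Nr1h4, 0.79 between Slc51b and Nr1h4, 0.70 between Slc51a and Slc10a2, and −0.70 between Slc51a and Nr0b2, each over 11 arrays. For Slc10a6 the same value against Slc51a was 0.05. These are descriptions of arrays that share preparation and scaling, and they carry no p.

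Other tissue in the samples differed between the arrays. The pancreatic acinar list (11 of 12 genes measured) had a summed signal of 2398 to 26208 at 3 h, 3092 to 75853 at 12 h and 2802 to 96947 in control. It was over 10000 on 5 arrays, 3 h replicate 3, 12 h replicates 1, 3 and 4, and control replicate 1. The arrays with the highest values, control replicate 1 and 12 h replicate 1, had the lowest Slc51a, Slc10a2 and Nr1h4 of their groups. On 12 h replicate 3 and 3 h replicate 3, also high in these transcripts, Slc51a and Nr1h4 were the highest of their groups. Within groups, r with the mean log2 level of the list was −0.34 for Slc51a, −0.58 for Slc10a2, −0.41 for Nr1h4 and 0.50 for Slc10a6 (11 arrays). With the 5 arrays left out, a choice made after seeing the data, the log2 difference of Slc51a was 2.35 at 3 h and 2.32 at 12 h, that of Slc10a2 1.66 and 2.64, and that of Slc10a6 2.01 and −0.01. In the same fit Slc51b had 0.79 and 0.81, and Nr1h4 0.59 and 0.33. In that fit 0.44% of all genes passed the threshold at 3 h, 0.044% at 12 h and 0.0879% at 12 h against 3 h. Slc10a6 passed at 3 h and at 12 h against 3 h, and 0 members passed at 12 h (limma; 3, 2 and 2 members had an unadjusted p under 0.05 at 3 h, at 12 h and between the times), and nothing is read from this about the members. Only 12 h replicate 2 then stood for 12 h, assumed to vary like the other groups.

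**Figure D4:**
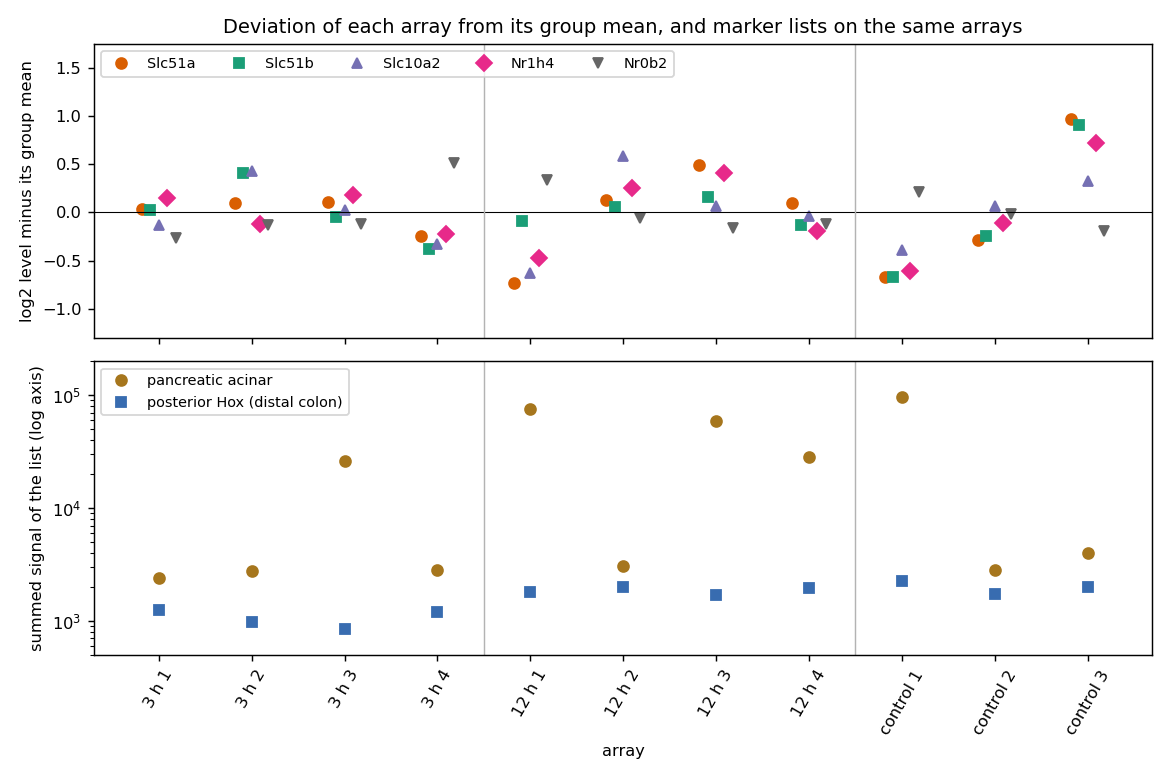
Upper panel, log2(signal + 16) of 5 members on each array minus the mean of its group. Lower panel, summed signal of the pancreatic acinar and posterior Hox lists on the same arrays on a log axis, where control replicate 1 and 12 h replicate 1 have the highest pancreatic sums, 96947 and 75853.

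Markers of colon epithelium were high in all groups. The summed signal of 14 measured genes of 15 was 54704 to 68032 at 3 h, 53575 to 71500 at 12 h and 61335 to 71909 in control, and of the 14 none passed the test at 3 h (limma; 1 had an unadjusted p under 0.05) and 1 rose at 12 h. Of the 19 measured small intestine genes of 20, 1 rose at 3 h and 2 at 12 h and none fell, and the summed signal was 2222 to 2475 at 3 h, 2412 to 2778 at 12 h and 1994 to 2048 in control, so every treated array was above every control. The ones that rose, the sodium-glucose transporter gene Slc5a1 and Enpep at 12 h and the alkaline phosphatase gene Alpi at 3 h, are also measured in control. The list was uneven, and its median log2 change was −0.009 at 3 h and 0.08 at 12 h. Slc5a1 averaged 767 at 3 h, 968 at 12 h and 602 in control. Mgam went the other way, with 417, 461 and 495, and Rbp2 and Slc15a1 also averaged below control at both times. Slc5a1, Mgam, Alpi, Slc15a1, Enpep, Rbp2 and Apob averaged 110 to 795 over the 11 arrays, while Lct, Apoa4 and Slc2a2 did not exceed 12.2, 12.8 and 10.7 on any. The 10 posterior Hox genes are a distal colon list, and 4 of them fell at 3 h and rose at 12 h against 3 h. Their summed signal was 850 to 1259 at 3 h, 1706 to 1980 at 12 h and 1747 to 2280 in control, so the 3 h arrays stood apart from the rest. The Hox sums at 12 h overlapped those of the controls. Within groups, r with the mean log2 level of the Hox list was −0.60 for Slc51a, −0.65 for Slc51b, −0.59 for Slc10a2 and −0.60 for Slc10a6 (11 arrays). With the small intestine list it was −0.19 for Slc51a, 0.12 for Slc51b, −0.43 for Slc10a2, 0.52 for Slc10a6 and 0.65 for Fabp6. Macrophage and enteroendocrine lists, of 10 measured genes each, also separated treated from control arrays in their mean log2 level. In summed signal treated and control arrays overlapped. The macrophage sums were 2189 to 2719 at 3 h, 2282 to 2469 at 12 h and 2664 to 3762 in control. The enteroendocrine sums were 3760 to 4722, 3683 to 4399 and 3456 to 4366. For macrophages the mean log2 level was 7.33 to 7.55 at 3 h, 7.48 to 7.60 at 12 h and 7.60 to 8.01 in control. Every treated array was below every control, by a margin of 7.597 to 7.603 at the closest. At 3 h Cx3cr1 fell and at 12 h Csf1r fell, with no other macrophage gene called against control. Within groups, r with this list was 0.86 for Slc51b and 0.58 for Slc51a. For enteroendocrine cells the level was 7.88 to 8.27 at 3 h, 7.82 to 8.16 at 12 h and 7.53 to 7.71 in control, with every treated array above every control. Nts of this list rose at both times, and Insl5 fell at 3 h. Within groups, r with this list was 0.52 for Slc51a and 0.38 for Slc10a2. The part of these markers in the members' values was not tested.

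The rest of the pathway was followed in 5 lists with 70 different genes apart from the members, 63 of them measured. At 3 h 3 of the 63 rose and none fell, at 12 h 2 rose and 1 fell, and at 12 h against 3 h 4 rose and 3 fell (limma, adjusted p under 0.05 over all genes). These are 4.76%, 4.76% and 11.1% of the genes, where the shares over all genes were 2.54%, 1.62% and 4.08%. Before adjustment 16, 12 and 16 had a p under 0.05. The median log2 changes were 0.04, 0.05 and 0.02. With the 5 arrays high in pancreatic transcripts left out limma called none of the 63 at 3 h (14 with an unadjusted p under 0.05). Only 12 h replicate 2 then stood for 12 h, and nothing is read from calls in the comparisons with 12 h.

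Of 18 genes listed under bile acid synthesis and conjugation, processes mainly of the liver, 1 rose in each comparison and none fell. Ch25h, the cholesterol 25-hydroxylase gene, had a signal of 73.7 ± 18.1 (SD, n = 4) at 3 h and 29.0 ± 7.1 (SD, n = 3) in control, which is 0.99 ± 0.19 on the log2 scale (SE; limma adjusted p = 0.0181). Acox2, which encodes the peroxisomal oxidase of the bile acid side chain, rose at 12 h by 0.65 ± 0.14 (SE; limma adjusted p = 0.0402), and Slc27a2, a very long chain acyl-CoA synthetase gene, rose at 12 h against 3 h by 0.58 ± 0.13 (SE; limma adjusted p = 0.0307). Slc27a2 averaged 14.4 at 3 h, 28.85 at 12 h and 24 in control. Acox2 averaged 28.5 at 3 h, 31.5 at 12 h and 14.3 in control. At 3 h its log2 change from control was 0.56 ± 0.14 (SE, limma adjusted p = 0.0546), and at 12 h against 3 h it was 0.09 ± 0.13 (SE). Leaving out single arrays ended the Ch25h call for 4 of the 11 arrays, control replicates 1 and 2 and 3 h replicates 2 and 3 (adjusted p up to 0.0871), and the Acox2 call for 10, all but 12 h replicate 2 (up to 0.155). The Slc27a2 call was lost for 6, 3 h replicates 1, 2 and 3 and 12 h replicates 1, 2 and 3 (up to 0.0937). Cyp7a1, the rate-limiting enzyme gene of the classical pathway, did not exceed 23.3 on any array, and Cyp27a1, which opens the alternative pathway, had log2 changes of 0.16 ± 0.11 (SE) at 3 h and 0.08 ± 0.11 (SE) at 12 h.

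Of 17 other transporter genes none passed the test at 3 h or at 12 h against control (limma; 2 and 4 had an unadjusted p under 0.05), and 2 fell at 12 h against 3 h. Abcg2, which encodes an apical exporter of many drugs and conjugates, had 625.2 ± 86.5 (SD, n = 4) at 12 h and 1043 ± 118 (SD, n = 4) at 3 h, a log2 difference of −0.73 ± 0.11 (SE; limma adjusted p = 0.00394). The call held without any single array (adjusted p up to 0.0164). Its control signal of 886.7 ± 7.2 (SD, n = 3) lay between both. Abcg5, a subunit of the sterol exporter, fell by 1.00 ± 0.21 (SE; limma adjusted p = 0.021) at 12 h against 3 h, a call lost without 3 h replicate 2 or 3 or 12 h replicate 1 or 2 (adjusted p up to 0.065). Abcg5 averaged 65.5 at 3 h, 24.9 at 12 h and 33.1 in control. Abcc3, another basolateral exporter gene of bile acids, had 861.4 ± 98.6 (SD, n = 4) at 3 h, 615.2 ± 146.4 (SD, n = 4) at 12 h and 709.7 ± 87.6 (SD, n = 3) in control, with log2 changes of 0.27 ± 0.18 (SE) and −0.23 ± 0.18 (SE) against control. The apical exporter gene Abcc2 stayed at or under 16.4.

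Among 8 other fatty acid binding protein genes, the family of Fabp6, Fabp4 rose at both times, to 1136 ± 237 (SD, n = 4) at 3 h and 1112 ± 293 (SD, n = 4) at 12 h, against 494.5 ± 68.8 (SD, n = 3) in control. The log2 changes were 1.16 ± 0.21 (SE; limma adjusted p = 0.0161) and 1.11 ± 0.21 (SE; limma adjusted p = 0.0276). Fabp4 is known from adipocytes and endothelium, and the summed signal of 8 measured fat genes of 10 was 2900 to 3846 at 3 h, 1332 to 3583 at 12 h and 1461 to 1905 in control; the part of fat was not tested. The 3 h call was lost without control replicate 2 or 3 or 3 h replicate 2 or 3 (adjusted p up to 0.0695), the 12 h call without any 1 of the controls or 12 h replicate 3 (up to 0.104). Fabp7, a brain form, was at most 22.1 on any array and was called lower at 12 h (−0.86 ± 0.16 SE; limma adjusted p = 0.027), a call lost without control replicate 1 or 2 or 12 h replicate 2 or 3 (up to 0.108). Fabp2, the intestinal form, had log2 changes of 0.21 ± 0.19 (SE) and 0.16 ± 0.19 (SE), and Fabp1, the liver form, did not exceed 13.6.

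In the list of receptors, partners and regulators (18 of 23 measured) 1 gene rose at 3 h, none passed the test at 12 h (limma; 3 had an unadjusted p under 0.05), and 3 rose and 1 fell at 12 h against 3 h. Cdx2, the gene of an intestinal homeobox factor, had 742.0 ± 39.3 (SD, n = 4) at 3 h and 434.3 ± 19.8 (SD, n = 3) in control. The log2 difference was 0.75 ± 0.10 (SE, limma adjusted p = 0.00243), and the call held without any single array (adjusted p up to 0.0202). At 12 h Cdx2 had 581 ± 57 (SD, n = 4), a log2 difference from control of 0.40 ± 0.10 (SE, limma adjusted p = 0.0701). At 12 h against 3 h the glucocorticoid receptor gene Nr3c1 rose, with 552.5 ± 90.7 (SD, n = 4) at 12 h and 342.4 ± 21.3 (SD, n = 4) at 3 h (log2 change 0.65 ± 0.11 SE; limma adjusted p = 0.00648). So did S1pr2, a sphingosine 1-phosphate receptor gene that conjugated bile acids also activate, with 50.2 ± 5.0 and 25.2 ± 5.0 (0.69 ± 0.11 SE; limma adjusted p = 0.00635). Both held without any single array (adjusted p up to 0.0258 and 0.0238), but S1pr2 did not pass with the mean of all its probe sets (0.49, limma adjusted p = 0.136). The control means were 433.0 for Nr3c1 and 41.7 for S1pr2. The vitamin D receptor gene Vdr, which also senses lithocholic acid, rose by 0.44 ± 0.10 (SE; limma adjusted p = 0.0293) and Fgfr4, the receptor of FGF15, fell by 1.03 ± 0.21 (SE; limma adjusted p = 0.0191), both at 12 h against 3 h. Vdr averaged 832 at 3 h, 1135 at 12 h and 1109 in control, and Fgfr4 90.5, 35.9 and 43.0. The Vdr call was lost without any 1 of the 3 h arrays or 12 h replicates 2, 3 and 4 (adjusted p up to 0.0853), and that of Fgfr4 without 3 h replicate 1 or 4 (up to 0.0573).

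Regulators named by rule that did not pass the test were as follows. Rxra, the gene of the partner receptor of FXR, had log2 changes of −0.12 ± 0.12 (SE) at 3 h and 0.06 ± 0.12 (SE) at 12 h against control. Nr5a2, the gene of LRH-1, which SHP restrains, had 0.19 ± 0.13 (SE) and 0.04 ± 0.13 (SE), and Hnf4a had −0.15 ± 0.13 (SE) and 0.05 ± 0.13 (SE). For the xenobiotic and bile acid receptor gene Nr1i2 the values were −0.06 ± 0.13 (SE) and −0.16 ± 0.13 (SE), and for Klb, the β-Klotho gene, −0.42 ± 0.21 (SE) and −0.42 ± 0.21 (SE). Gata4, a proximal gut factor known to hold down Slc10a2 in mouse jejunum, did not exceed 30.1 on any array, with changes of 0.22 ± 0.34 (SE) and 0.51 ± 0.34 (SE).

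**Figure D5:**
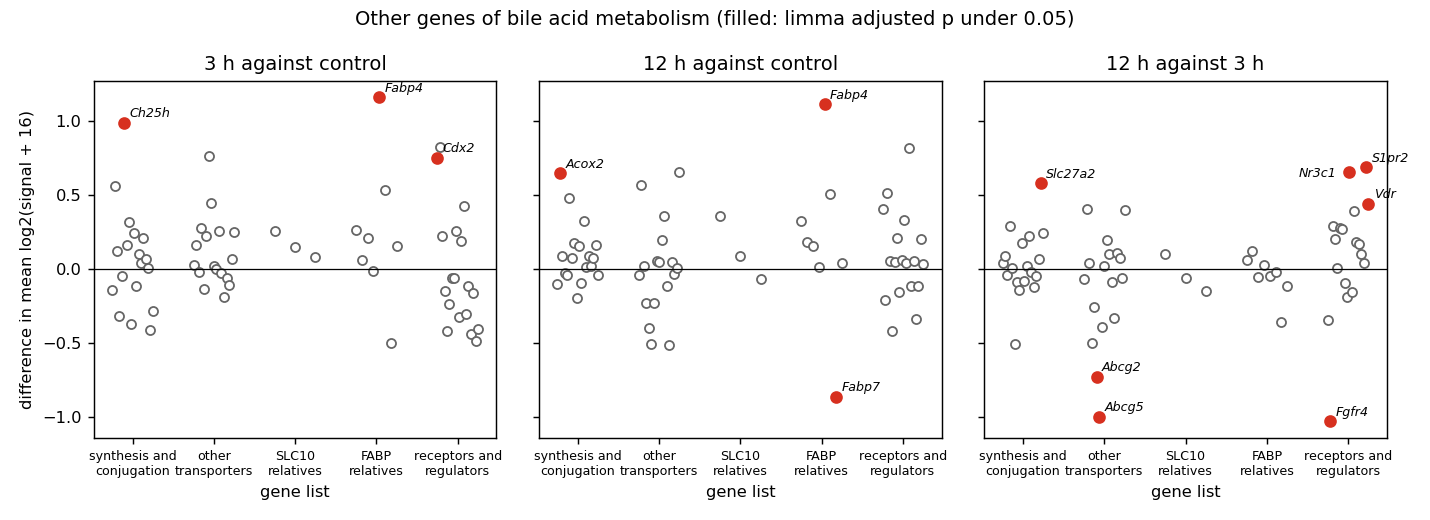
Difference in mean log2(signal + 16) of the measured genes of the 5 pathway lists in the 3 comparisons, with 1 point per gene (Slc10a1 stands in both transporter lists). Filled and named points passed limma at an adjusted p under 0.05, namely 3 genes at 3 h, 3 at 12 h and 7 at 12 h against 3 h.

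Targets of the glucocorticoid, vitamin D and PXR receptors were followed in 2 further lists, part of whose changes were known when they were drawn up. All 10 glucocorticoid-induced genes rose at 3 h (median log2 change 1.20), 3 rose at 12 h (Fkbp5, Sgk1 and Per1, median 0.29), and 7 fell at 12 h against 3 h. Over all genes 2.54%, 1.62% and 4.08% passed, and nothing is read from the counts of either list. Without the arrays high in pancreatic transcripts fewer were called at 12 h and at 12 h against 3 h. Only 12 h replicate 2 then stood for 12 h. The summed signal of the list was 11387 to 13012 at 3 h, 5712 to 6972 at 12 h and 4381 to 4433 in control. The count at 3 h was 6 without control replicate 1, 6 without control replicate 2 and 5 without the arrays high in pancreatic transcripts. Of 8 measured genes that VDR and PXR drive, 3 rose at 3 h and 1 at 12 h, and none passed the test downward against control. S100g, the intestinal calcium-binding protein gene, had 2.34 ± 0.43 (SE; limma adjusted p = 0.0161) at 3 h and 2.37 ± 0.43 (SE; limma adjusted p = 0.0217) at 12 h. Trpv6, the apical calcium channel gene, rose at 3 h (1.16 ± 0.22 SE; limma adjusted p = 0.0192) and fell at 12 h against 3 h (−1.92 ± 0.21 SE; limma adjusted p = 0.000366), and Cyp3a25 was the other at 3 h (1.23 ± 0.22 SE; limma adjusted p = 0.0149). Lower values that did not pass were Trpv6 at 12 h against control (−0.76 ± 0.22 SE) and Cyp24a1 at 3 h (−0.34 ± 0.13 SE). Cyp24a1 did not exceed 10.5 on any array, and Cyp3a25 averaged 26.1 at 3 h, 19.15 at 12 h and 1.83 in control. The count of genes that rose at 3 h was 0 without control replicate 2 (4 with an unadjusted p under 0.05) and 1 without control replicate 1 or 3 h replicate 3. The S100g call at 12 h was lost without control replicate 1 or 2 or 12 h replicate 3, and limma called none of the 8 in any comparison without the arrays high in pancreatic transcripts (4, 4 and 2 with an unadjusted p under 0.05).

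The genes whose levels ran most like those of the members with the largest log2 differences at the offset of 16 were found by Pearson's r over the 11 arrays, as a description in which the arrays share scaling and groups. For Slc51a these were Tmigd1 (r = 0.979), an epithelial adhesion gene, Slc35d1 (0.975), Hkdc1 (0.971), a hexokinase relative, neurotensin Nts (0.968) and Prap1 (0.962). Tmigd1 averaged 1961 at 3 h, 2004 at 12 h and 715 in control. The most opposite were Clec4f (−0.974), which averaged at most 12.9 in any group, and Ube2r2 (−0.947). For Slc10a6 the most alike were Crispld2 (0.986), Sphk1 (0.983), the sphingosine kinase gene, Ptx3 (0.983), Arc (0.982) and Adamts4 (0.979), and the most opposite Lmnb2 (−0.971) and Pigf (−0.959). Crispld2 averaged 935 at 3 h, 246 at 12 h and 221 in control, the same order as Slc10a6. No gene was among the 5 most alike of both members.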

How the data were processed

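RNA of 11 mouse colon samples was hybridised to an Affymetrix expression array with biotin label, per the labels' protocols. The authors deposited 1 linear signal intensity per probe set. Neither software nor summary method is given in the sources used here. In the deposited values each array has a mean of 100 after trimming 2% at each end, so a single factor scaled each array, with no log or quantile step. No 2 arrays were identical among 55 pairs.

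The platform annotation gave each probe set its gene, and Entrez numbers led to current RefSeq symbols of GRCm38.p6 (99.4% found). Of 45037 probe sets 34945 had 1 symbol, 932 several and 9160 none, and the last 2 kinds were left out. The brightest probe set stood for each of 18193 genes. Signals were taken as log2(signal + 16). In 32.9% of genes the mean lay below the value that a signal of 16 gives.

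Genes were fitted with limma 3.58.1 in R 4.3.3 on all 11 arrays (8 residual and 3.98 prior degrees of freedom), 2-sided, with calls at a Benjamini-Hochberg adjusted p under 0.05 over all genes. A trial of the procedure on simulated data with known changes has no outcome given here, and nothing rests on it. The members and lists were chosen with earlier results of these data known. By rule the text names all members, every called gene of the pathway lists (at most 6 per list and comparison), 16 set genes in the same steps, and the 5 most and 2 least alike genes of the member with the largest log2 difference (offset 16) in each comparison. Some listed genes and markers were not analysed here. Promoter windows are from RefSeq. Alternatives covered scaling, offset, a level filter, probe sets, the variance prior, array weights, the arrays fitted, a replicate block, each array left out and the threshold, with the arrays high in pancreatic transcripts left out added after seeing the data. Python 3.11.15 and matplotlib 3.10.9 made the figures.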

Additional observations from a re-analysis of the deposited data

Results flagged for a closer look

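In 7 genes of the pathway lists the effects at 3 h and at 12 h differed by the test of the difference itself, which is the comparison of 12 h against 3 h (limma, adjusted p under 0.05, 4 arrays each). The log2 difference was 0.58 for Slc27a2 (0.577), −0.73 for Abcg2 (−0.726), −0.997 for Abcg5, 0.69 for S1pr2 (0.688), 0.65 for Nr3c1 (0.655), −1.03 for Fgfr4 and 0.44 for Vdr (0.442), with the value to 3 digits in brackets. Every 12 h array lay apart from every 3 h array in each of the 7, against 11.5% of all genes. Since the 7 were picked by this same comparison, nothing is read from that. Leaving out single arrays ended the call for 7 of 11 arrays in Vdr, 6 in Slc27a2, 4 in Abcg5 and 2 in Fgfr4.

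The signal of Nr3c1 on 12 h replicate 3, 688, stood away from the other 12 h arrays. Its gap to the nearest array was 0.874 of the group's range on the log2 scale, above Dixon's critical value for 4 samples. It was the only such array among 40 groups of 4 examined for 20 genes, and chance flags about 1 group in 20.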

How the results depend on the processing

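No member whose difference was called changed sign under any alternative. Of 543 member values under the alternatives 525 moved by less than 1 SD between replicates and 18 by more, 16 of these with an offset of 1 or 64. Genes called numbered 463 at 3 h, 294 at 12 h and 742 at 12 h against 3 h. They were 228, 80 and 437 with an offset of 1, and 278, 182 and 467 with the replicate block. At an adjusted p under 0.1 they were 879, 682 and 1276. With arrays high in pancreatic transcripts left out they were 80, 8 and 16, with fewer arrays in the fit. At 12 h they were also 492 with an offset of 64, 619 among genes with a mean signal of at least 50, 527 with a trended and robust prior and 60 with only the 2 groups compared. Leaving out 1 array gave 161 to 520, 63 to 449 and 391 to 755.

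Pathway genes called numbered 3, 3 and 7 of 63. At 3 h they were 5 with the level filter, with the trended prior and with array weights, and 7 at an adjusted p under 0.1. At 12 h they were 5 with an offset of 64, 6 with the trended prior, 1 with only the 2 groups compared and 8 at an adjusted p under 0.1. At 12 h limma called 0 with an offset of 1 (12 with an unadjusted p under 0.05), with all probe sets as features (12) and with the replicate block (14). At 12 h against 3 h they were 3 with an offset of 1 and 3 with the replicate block. With arrays high in pancreatic transcripts left out limma called 0 in each comparison (14, 8 and 10 unadjusted). Leaving out 1 array gave 1 to 4, 0 to 4 and 4 to 7. Members called numbered 3, 2 and 1. They were 1 and 0 in the comparisons with control once arrays high in pancreatic transcripts were left out (limma; 3 and 2 unadjusted), and 2 at 12 h against 3 h at an adjusted p under 0.1. Leaving out 1 array gave 3 to 5, 2 to 3 and 1 to 2. The highest counts came without control replicate 3 for both comparisons with control, and without 3 h replicate 4 for 12 h against 3 h.

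The labels do not say that the replicate numbers pair the samples, and the correlations that follow cannot exclude it. Of 10 pairs of arrays with the same number 3 had deviations that correlated above 0.1, with a range from −0.21 to 0.31. The cause of the other shifts was not tested.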
